A study of Mus musculus with 4 samples.

Results

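Wild-type H2A.Z peaks that had no counterpart in Anp32e knockout cells but lay close to a knockout peak were described here. They were chosen by position in the deposited peak lists: a peak of the wild-type list that shared no base with any knockout peak, with an edge-to-edge gap of 5000 bp or less to the nearest knockout peak on the same chromosome. The rule found 2613 peaks, called adjacent wild-type-only peaks below. They were 37.9% (95% interval 36.8 to 39.1%) of the 6892 peaks found in the wild type alone, and 6.94% of all 37667 wild-type peaks. Having no overlap was itself the less common state, since 18.3% of wild-type peaks and 28.1% of the 41912 knockout peaks overlapped nothing in the other list. The remaining 4279 wild-type-only peaks, all more than 5000 bp from a knockout peak, are called remote, and the 30775 wild-type peaks that overlapped a knockout peak are called shared.

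The study used ChIP-seq, in which DNA bound to H2A.Z is precipitated with an antibody and sequenced. The cells were mouse embryonic fibroblasts (MEFs), which are primary cells grown out of embryo tissue. Cells that were Anp32e wild type (+/+) were set against knockout (-/-) cells, both from crosses of heterozygous mice. Both were of C57BL/6 background, were prepared from individual embryos of embryonic day 10.5 with head and inner organs taken away, and were at passages 5 to 10. Each genotype had 1 H2A.Z library and 1 input library, and the inputs were not analysed here. There was therefore no replicate and no test between genotypes, every value describes these libraries, and intervals (exact Clopper-Pearson for shares, order statistics for medians) cover counting error over peaks only. The lists hold positions without height or read counts, which leaves sequencing depth unknown. Neither the knockout nor the fibroblast identity of the cells could be checked from them.

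H2A.Z is a variant of histone H2A that replaces the ordinary form in nucleosomes, mainly those flanking active promoters and at enhancers. It is put in place by remodelling complexes of the SWR1 family, such as SRCAP and p400. ANP32E binds the H2A.Z-H2B dimer and is known as a chaperone that takes it out of nucleosomes. A site called in wild-type cells alone is thus the opposite of a site gained when the chaperone is missing. A call is also a threshold crossing, so a peak absent from a list is not a measurement of absent H2A.Z.

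A stretch of chromosome 4 shows the arrangement. The window from 140900001 to 141000000 held more adjacent wild-type-only peaks than any other window of 100 kb, 8 in all. It contained 21 wild-type and 12 knockout peaks, and none of the knockout peaks lacked a wild-type partner. A wild-type-only peak of 1244 bp at 140915690 to 140916933 was followed at 140918465 by a shared wild-type peak of 1466 bp, which the knockout matched with a peak of 1520 bp at 140918414 to 140919933. The gap from the unmatched peak to that knockout peak was 1480 bp. Further along, the wild-type list had unmatched peaks of 962, 1236 and 1185 bp starting at 140940949, 140943113 and 140945521. They lay between knockout peaks at 140937722 to 140939217 and at 140950071 to 140951830, and the knockout list was empty in between. The nearest gap in the window was 171 bp, from the wild-type-only peak at 140976970 to 140978078 to the knockout peak ending at 140976798. The window was picked for its number of such peaks, so it illustrates the arrangement and does not measure how common it is.

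Over the whole set, the knockout peak nearest to an adjacent wild-type-only peak had a wild-type partner of its own for 76.6% of them (exactly 1 partner) and 2.18% (2 or more partners), and had none for 21.2%. Of all knockout peaks 71.9% had a partner, or 76.97% with chromosomes weighted as in the set. When a partner had to have its centre within 250 bp, with the set chosen anew by that rule, 22.4% of neighbours had one. That rule also admits wild-type peaks that overlap a knockout peak off centre, and such a knockout peak then counts as a neighbour. The low value is thus largely set by the rule and is not comparable with the others. Another wild-type peak lay within 5000 bp of 83.2% of adjacent wild-type-only peaks, at a median gap of 2283 bp over all of them. The share within 5000 bp was 40.6% over all wild-type-only peaks and 39.2% over shared peaks. Where the neighbouring knockout peak and its wild-type partner overlapped only each other (a matched pair, the case for 1977 adjacent wild-type-only peaks), that partner was the nearest wild-type peak for 89.7% (88.3 to 91.04%). The rule favours both the 83.2% and the 89.7%, since it asks for a nearby knockout peak and most of these overlapped a wild-type peak. The neighbour lay at higher coordinates for 51.3% (49.4 to 53.3%) and at lower coordinates for the rest. Knockout peaks lay within 5000 bp on both sides of 561 of them, or 21.5%.

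**Figure D1:**
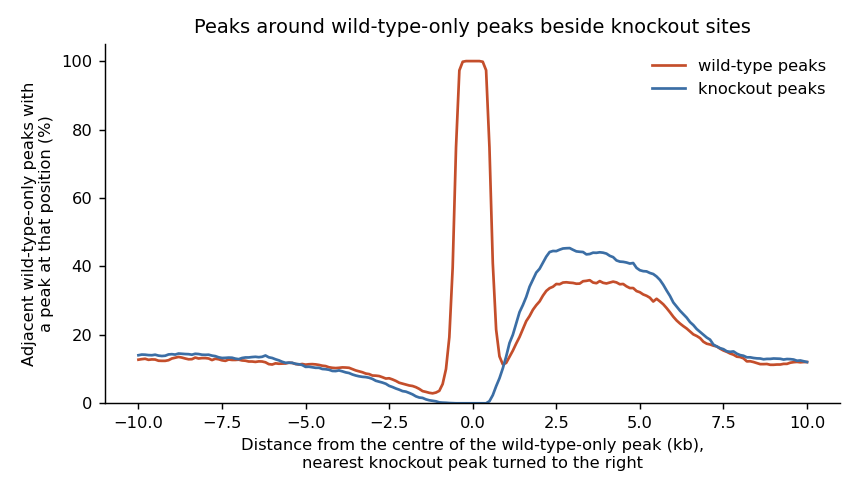
Share of the 2613 adjacent wild-type-only peaks that had a wild-type (red) or knockout (blue) peak at each distance from their centre in kb, in steps of 100 bp, each turned so that its nearest knockout peak lies to the right. Knockout peaks are at 0% at the centre by the rule, and on the right reach 44.9% at 3 kb, where other wild-type peaks reach 35.2%; at 3 kb on the left the values are 7.12% and 8.11%.

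At 3000 bp towards the neighbour, 44.9% of adjacent wild-type-only peaks had a knockout peak and 35.2% a wild-type peak. On the other side the values at 3000 bp were 7.12% for the knockout and 8.11% for the wild type. At 10000 bp on that side the values were 14.05% and 12.7%. The rule and the turning set much of this shape. A knockout peak was required on the right and a wild-type peak was not, and a knockout peak on the left had to lie further away than the one on the right.

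Adjacent wild-type-only peaks were narrow. Their median width was 1142 bp (1132 to 1152 bp, quartiles 997 and 1326 bp), and 86.8% were narrower than 1.5 kb. Remote wild-type-only peaks had a median of 1123 bp (1113 to 1131 bp), so the intervals of both sets all but met. Shared wild-type peaks had a median of 1840 bp, and shared peaks that lay within 5000 bp of another knockout peak a median of 1772 bp. Only 56 adjacent wild-type-only peaks (2.14%) exceeded 2 kb, against 42.2% of shared peaks. A narrow peak is less likely to touch a peak of the other list, so its width and its choice by the rule are linked. Together the adjacent wild-type-only peaks covered 3.15 Mb of the 8.15 Mb in wild-type-only peaks.

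**Figure D2:**
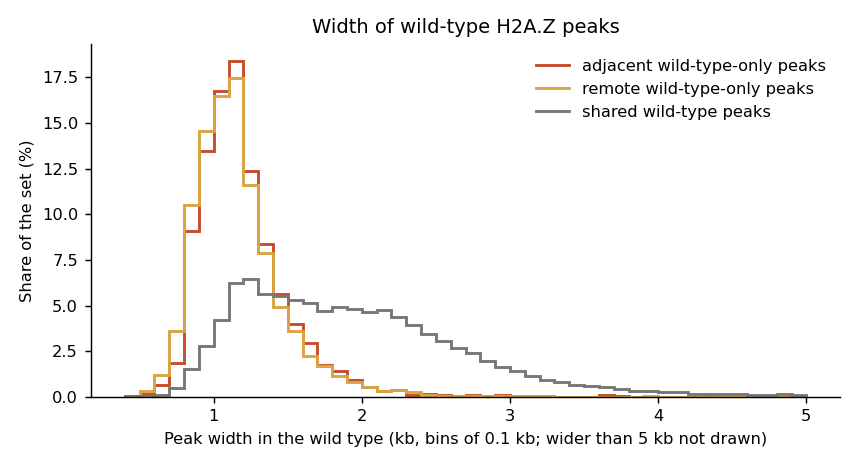
Width in kb of adjacent wild-type-only (red), remote wild-type-only (yellow) and shared (grey) wild-type peaks, as a share of each set in bins of 0.1 kb. The red and yellow curves nearly coincide, with medians of 1142 and 1123 bp, while shared peaks spread to a median of 1840 bp.

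Lying within 5000 bp of a knockout peak was slightly less frequent among wild-type-only peaks than among shared ones by the 1 bp overlap rule. Of the shared wild-type peaks, 39.9% (39.3 to 40.4%) had another knockout peak, not overlapping them, within that limit, compared with 37.9% of wild-type-only peaks. The direction depended on the limit: the shares were 10.1% (shared) and 12.03% (wild-type-only) at 1000 bp, and 23.9% and 24.01% at 2500 bp. At short limits the shared share can be low because a shared peak's own knockout partner is skipped and can cover its flank. When partners needed centres within 250 bp the shares were 38.2% and 66.5% at 5000 bp. That rule counts peaks overlapping a knockout peak off centre as wild-type-only and as within the limit, which itself raises the wild-type-only share. Shared peaks are wider, so the shares were also set side by side at equal width. They were 33.8% (wild-type-only, 31.7 to 35.9%) and 37.8% (shared, 35.3 to 40.3%) below 1000 bp. From 1000 to 1200 bp they were 38.7% and 42.7%, and from 1200 to 1500 bp 39.8% and 44.4%. From 1500 to 2000 bp they were 41.4% (37.7 to 45.2%) and 40.96% (39.9 to 42.1%). At 2000 bp and above, an open class in which widths were not matched, they were 40.4% (32.3 to 49.01%) and 36.9%. The wild-type-only share was the lower one in the 3 narrower classes, with intervals apart from 1000 to 1500 bp, and the intervals overlapped in the others. Within the wild-type list, where the overlap rule sets the groups but not the gaps, another wild-type peak lay within 5000 bp of 40.6% of wild-type-only and 39.2% of shared peaks. At equal width the wild-type-only share was the lower one in the 3 narrower classes, with overlapping intervals (35.4% against 37.5%, 40.7% against 41.4% and 42.3% against 43.1%). It was the higher one from 1500 to 2000 bp (48.2% against 40.9%) and at 2000 bp and above (51.1% against 36.3%), with intervals apart. The last class has no upper limit, so it is not a comparison at equal width.

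Short gaps were more frequent among adjacent wild-type-only peaks than in the sets compared with them. Their median gap to the nearest knockout peak was 1796 bp (1686 to 1859 bp, quartiles 736 and 3180 bp). Gaps of 500 bp or less made up 17.8% (16.3 to 19.3%) of them. Of the shared peaks with another knockout peak in the same range, 12.03% (11.5 to 12.6%) had such a gap. The mirror set, knockout-only peaks within 5000 bp of a wild-type peak, numbered 3810 (32.4% of knockout-only peaks) and had 12.97% (11.9 to 14.1%) at 500 bp or less. Gaps of 250 bp or less were found for 230 adjacent wild-type-only peaks (8.80%), against 5.03% of the shared and 5.51% of the mirror set. No replicate was available against which to test these differences. For a shared peak the gap skips its own knockout partner, which can cover the flank where a short gap would fall. The shared set may thus have fewer short gaps by construction, while the mirror set has no such partner. In 946 cases (36.2%) the gap was smaller than the wild-type-only peak itself.

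**Figure D3:**
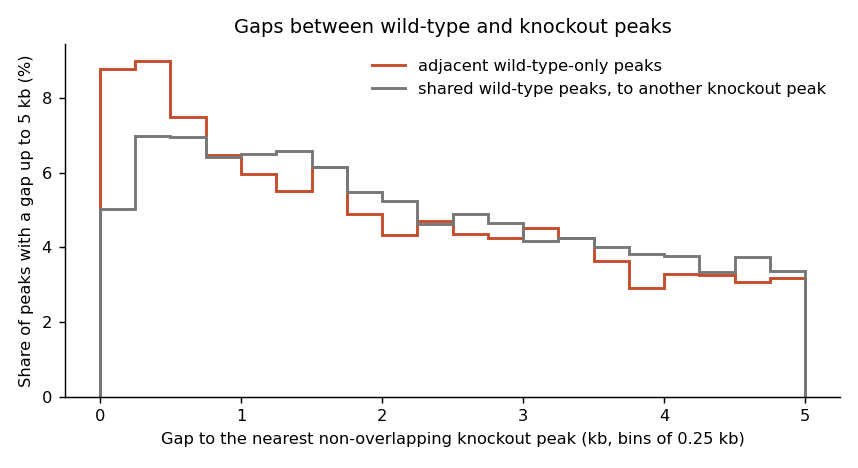
Gap in kb to the nearest knockout peak that the wild-type peak does not overlap, for adjacent wild-type-only peaks (red) and for shared wild-type peaks (grey), as a share of the peaks with a gap up to 5 kb in bins of 0.25 kb. The red curve is highest below 0.5 kb, with 17.8% of its peaks at gaps of 500 bp or less against 12.03% of the grey set.

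Gaps were also taken to the wild-type partner of the neighbouring knockout peak. Among the 1977 peaks beside a matched pair, the median gap was 1824 bp to the knockout peak and 1951 bp to that peak's own wild-type partner. The knockout edge was the nearer one for 66.1% (63.9 to 68.1%). This is by definition the share of knockout peaks that reached beyond their partner on the facing side. On the far side the share was 65.5%, and a link between reach and short gaps was not tested. Gaps of 500 bp or less made up 17.3% when taken to the knockout peak and 14.3% (12.8 to 15.9%) when taken to the wild-type partner. The latter share is still above the 12.03% of shared peaks, and the intervals do not overlap, although the values come from different kinds of gap. Its interval does overlap that of the mirror set of knockout-only peaks, which had 12.97% (11.9 to 14.1%).

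The closest cases missed an overlap by a few bases. The smallest gap was 2 bp, on chromosome 13, where a wild-type peak of 1095 bp at 104434787 to 104435881 followed a knockout peak of 1320 bp at 104433465 to 104434784 that had no wild-type partner. On chromosome 4 a wild-type peak of 1236 bp at 88522290 to 88523525 ended 5 bp before a knockout-only peak of 1193 bp. These were neighbouring calls of similar width, each in a different library. The next 3 cases were of the more usual kind, with a shared site as the neighbour. On chromosome 15 a peak of 1690 bp at 100956421 to 100958110 ended 5 bp before a knockout peak of 2385 bp, but 229 bp before that peak's wild-type partner of 1845 bp. On chromosome 11 a peak of 1063 bp at 76809262 to 76810324 lay 6 bp from a knockout peak of 2541 bp. It lay 174 bp from that peak's wild-type partner, which was wider at 2615 bp. On chromosome 17 a peak of 1045 bp at 72129772 to 72130816 lay 7 bp from a knockout peak of 2634 bp and 348 bp from its partner of 1879 bp. In these 3 the knockout peak reached further towards the wild-type-only peak than its partner did. Picking the smallest gaps to a knockout peak favours such cases.

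At the other end, the limit of 5000 bp cut through a continuous range of gaps. The last peaks inside it lay 4995, 4991 and 4988 bp from a knockout peak, on chromosomes 3, 11 and 4, and were 1288, 1423 and 763 bp wide. The first peaks outside it lay 5010, 5019 and 5019 bp away, on chromosomes 2, 8 and 11, with widths of 1152, 1459 and 1828 bp. All 6 had a knockout neighbour with a single wild-type partner.

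The neighbouring knockout peaks numbered 2468, since 123 of them served 2 adjacent wild-type-only peaks and 11 served 3. Of the neighbours, 78.2% (76.6 to 79.9%) overlapped a wild-type peak, against 71.9% of all knockout peaks and 74.0% of the knockout peaks beside shared peaks. Adjacent wild-type-only peaks were unevenly spread over chromosomes, and with the chromosomes weighted as they were, the share over all knockout peaks was 76.97%, within the interval of the neighbours. In all, 1877 neighbours had exactly 1 partner and 537 had none. Another 54 (2.19%) spanned 2 or more wild-type peaks, close to the 1.92% of all knockout peaks that did.

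Neighbouring knockout peaks had a slightly lower median width than knockout peaks in general, with intervals that overlapped. Their median was 1832.5 bp (1795 to 1879 bp, quartiles 1442.8 and 2418.2 bp), and that of all knockout peaks was 1881 bp (1871 to 1891 bp). With gap limits of 2500 and 1000 bp the neighbours' median was 1881 and 1900 bp, so it was not lower there. Neighbours without a partner had a median of 1424 bp, like the 1426 bp of all knockout-only peaks. Neighbours with exactly 1 partner had 2001 bp (1949 to 2042 bp), compared with 2121 bp (2110 to 2131 bp) for all knockout peaks of that kind and 2075 bp for those beside shared peaks. On 16 of the 20 chromosomes, neighbours that overlapped a wild-type peak had the lower median. The neighbour was wider than the adjacent wild-type-only peak itself in 88.9% of cases, by a median of 674 bp. This is not particular to neighbours, since the median of all knockout peaks, 1881 bp, also exceeds the 1142 bp of adjacent wild-type-only peaks.

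**Figure D4:**
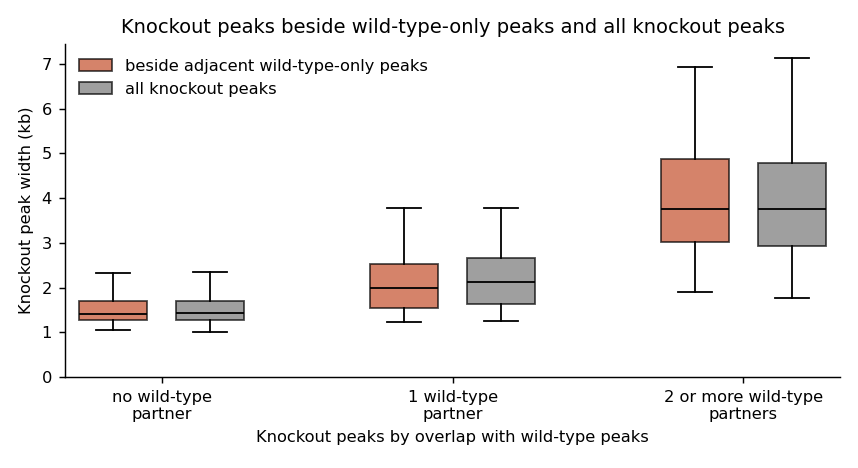
Width in kb of the knockout peaks beside adjacent wild-type-only peaks (red) and of all knockout peaks (grey), split by the number of wild-type peaks they overlap. Boxes span the quartiles with the median as a line, and whiskers reach the 5th and 95th percentiles; the medians for 1 partner are 2001 and 2121 bp.

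In matched pairs beside adjacent wild-type-only peaks the median excess of knockout over wild-type width was smaller than over all pairs. In these 1853 pairs the knockout peak had a median width of 2008 bp and the wild-type partner 1846 bp. Within pairs the knockout peak was wider by a median of 151 bp (133 to 169 bp, quartiles -61 and 369 bp), and it was the wider one in 69.7% (67.6 to 71.8%). Over all 28979 matched pairs the difference was 215 bp (quartiles 41 and 443 bp) and the share 79.7%. Much of this contrast went with the chromosomes involved: weighted by where adjacent wild-type-only peaks lay, the median difference was 158.5 bp for pairs beside them and 176.6 bp for all pairs. The signed value for pairs beside them was the lower one on 14 of 20 chromosomes. These include chromosome 4, where both values are negative and the one beside them is the larger in size. Without chromosome 4 the median beside them was 195 bp.

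The edges of these neighbours were moved alike on both sides. On the side facing the adjacent wild-type-only peak the knockout edge lay a median of 58 bp (50 to 69 bp) beyond that of its wild-type partner, and on the far side 62 bp (53 to 70 bp). The knockout edge was the outer one in 66.1% on the facing side and 65.5% on the far side. Knockout peaks beside shared peaks had medians of 98 and 95 bp at the matching edges. These edge values were not weighted by chromosome. For the pair width difference, 151 bp beside adjacent wild-type-only peaks stood against 219 bp beside shared peaks. Weighted by where adjacent wild-type-only peaks lay, these became 158.5 and 183.5 bp, so part of that contrast went with the chromosomes. The rule limits the facing edge, because a knockout peak that reached the wild-type-only peak would have removed it from the set, but it does not limit the far edge. The facing value was 78.5 bp (51 to 100 bp) where the gap was at most 500 bp and between 46.5 and 62 bp in the 5 classes of wider gaps. The far value was higher in the closest class as well, at 97 bp (74 to 117 bp) against 46 to 65 bp in the wider classes.

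The neighbour's kind changed little with the gap. It was a knockout-only peak for 23.2% (19.5 to 27.3%) of adjacent wild-type-only peaks with gaps up to 500 bp and for 19.8% (15.6 to 24.4%) of those with gaps over 4000 bp. The lowest of the 6 gap classes, 3000 to 4000 bp, had 17.8% (14.1 to 21.9%). Over those classes the median width of the wild-type-only peaks stayed between 1136 and 1155.5 bp.

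In 555 cases the nearest knockout peak was itself found in the knockout alone. In 502 of these (90.5%) the knockout-only peak in turn had the adjacent wild-type-only peak as its nearest wild-type peak, so each library had a peak where the other had none. The median gap in these reciprocal pairs was 1539 bp (1338 to 1706 bp), and their centres lay a median of 2969 bp apart. The knockout member was the wider one in 80.1% (76.3 to 83.5%), with a median of 1428 bp, and the wild-type member measured 1123 bp. The medians over all knockout-only and all wild-type-only peaks were much the same, at 1426 and 1131 bp. Gaps of 500 bp or less were found in 107 pairs, or 21.3%. In 303 pairs neither peak had another peak of its own list within 5000 bp. The smallest distance between centres was 934 bp, which the rule bounds because the peaks of a pair may not overlap.

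Adjacent wild-type-only peaks were most frequent on chromosome 4. It held 417 of them, which is 15.96% of the set on a chromosome with 8.397% of all wild-type peaks. Chromosome 11 followed with 301 and chromosome 2 with 247, and these 3 chromosomes held 36.9% of the set and 24.9% of wild-type peaks. As a share of a chromosome's own wild-type peaks they made up 13.2% (12.02 to 14.4%) on chromosome 4. Chromosomes 11, 17 and 12 came next with 9.90%, 8.87% and 8.44%. The X chromosome (16 peaks) was lowest at 2.43%, followed by 3.22% for chromosome 1 (62 peaks) and 3.27% for chromosome 16 (35 peaks). The interval of chromosome 4 lay above those of all other chromosomes.

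Much of that spread belonged to wild-type-only peaks in general. The part of a chromosome's wild-type-only peaks that lay beside a knockout peak varied less, from 25.7% (21.7 to 30.1%) on chromosome 6 to 45.6% (40.2 to 51.2%) on chromosome 15. On chromosome 4 it was 36.8% (33.99 to 39.7%), near the 37.9% of the whole genome. It followed how closely peaks were spaced on the chromosome. The share of shared wild-type peaks with another knockout peak within 5000 bp was lowest on the X chromosome and on chromosomes 12 (25.6%) and 6 (26.99%), and highest on chromosome 15 (54.5%). Across the 20 chromosomes the shares had a Spearman rho of 0.841 and a Pearson r of 0.88, given as a description since all values come from the same pair of lists and both use the same knockout peaks. On 13 of the 20 the wild-type-only share was the lower one. The intervals were apart on chromosome 15, where the wild-type-only share was lower, and on the X chromosome, where it was higher at 30.2% (18.3 to 44.3%) against 13.9% (11.2 to 16.9%).

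**Figure D5:**
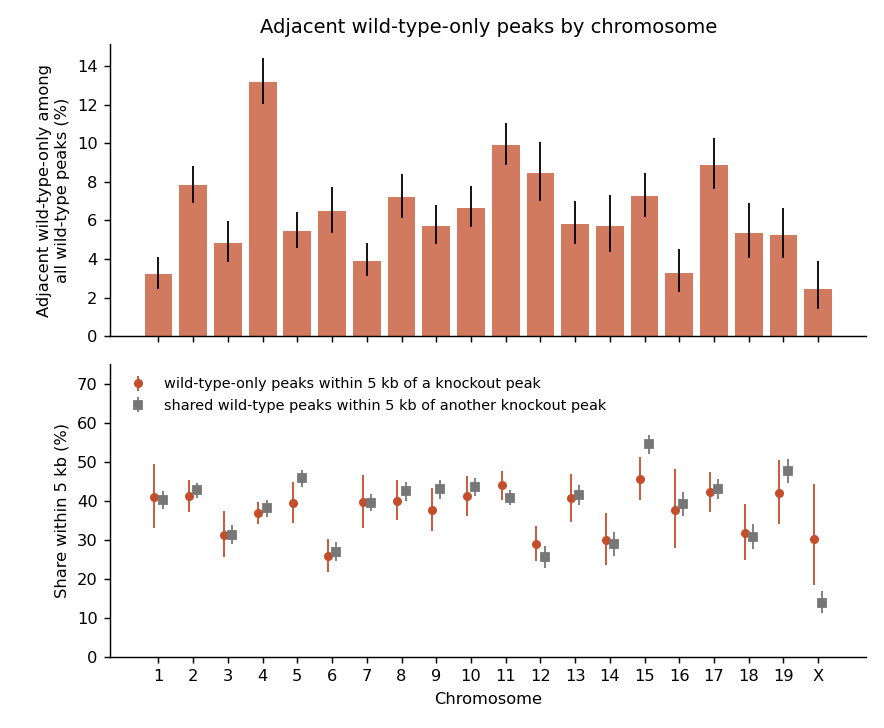
Top, adjacent wild-type-only peaks as a percentage of all wild-type peaks of each chromosome. Bottom, percentage of wild-type-only peaks within 5 kb of a knockout peak (red circles) and of shared wild-type peaks within 5 kb of another knockout peak (grey squares); lines are 95% Clopper-Pearson intervals. Chromosome 4 stands highest in the top panel at 13.2%, but in the bottom panel its values of 36.8% and 38.1% lie close together.

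The neighbours differed between chromosomes as well. On chromosome 4, 89.6% of the 365 neighbouring knockout peaks had a wild-type partner, as did 89.9% of all its knockout peaks. There the knockout peak of the matched pairs was the narrower one, by a median of -79 bp beside adjacent wild-type-only peaks and -32 bp over all pairs. On chromosome 16, 37.1% (21.5 to 55.1%) of the 35 neighbours had a partner, against 55.7% of all its knockout peaks. On chromosome 1 the values were 51.7% and 52.5%. Chromosomes 1 and 16 held more knockout than wild-type peaks (3260 against 1925, and 1707 against 1071), and chromosome 4 held fewer (2258 against 3163). Neighbours were thus often knockout-only peaks on the former and rarely on the latter.

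Adjacent wild-type-only peaks made up 6.94% of wild-type peaks, and most had none of their own kind next to them. In the order of the wild-type list, 2249 (86.1%) had no other of their kind directly before or after them, 161 runs held 2 and 14 runs held 3. With so small a share, most would have none of their kind beside them in a random order as well. Another wild-type peak of any kind lay within 5000 bp of 83.2%, against 40.6% of all wild-type-only peaks. The rule favours this, since it asks for a nearby knockout peak and most of these overlapped a wild-type peak. The first of the 11 knockout peaks that served 3 lay on chromosome 4 at 11695938 to 11697700, was 1763 bp wide and had a wild-type partner of 1246 bp. Before it the wild-type list had unmatched peaks of 1143, 1171 and 1266 bp starting at 11690077, 11691544 and 11694142, with gaps of 4718, 3223 and 530 bp to the knockout peak. Windows of 100 kb with a single adjacent wild-type-only peak numbered 1566, and 16 windows held 5 or more.

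After the chromosome 4 window described above, the densest were on chromosomes 11 and 2. The window of chromosome 11 from 101500001 to 101600000 held 7 adjacent wild-type-only peaks among 19 wild-type and 10 knockout peaks, and again every knockout peak had a wild-type partner. Of these, 3 followed each other between knockout peaks ending at 101535333 and starting at 101547764, with widths of 1170, 1149 and 1176 bp. The window of chromosome 2 from 74500001 to 74600000 held 6, among 15 wild-type and 11 knockout peaks, and was the first in genome order of the 5 windows with that number. It differed from the other windows described in holding 3 knockout-only peaks of 1573, 1754 and 1488 bp. The last of these, at 74573719 to 74575206, was the neighbour of a wild-type-only peak of 1474 bp at 74577883 to 74579356, 2676 bp away.

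The widest adjacent wild-type-only peaks included 2 of exceptional size. A peak of 17562 bp on the X chromosome, 166420594 to 166438155, lay 173.2 kb before the last wild-type peak listed there. Its neighbour was a knockout peak of 5364 bp, 3570 bp away, which matched a wild-type peak of 5274 bp at nearly the same position. A peak of 9186 bp on chromosome 1, 90193870 to 90203055, lay 4143 bp from the widest peak of the knockout list, 21702 bp at 90168025 to 90189726, whose partner measured 20470 bp. In both places the libraries held nearly the same wide neighbour while the knockout list lacked the second wide block. These regions were not checked for repeats or poor mapping.

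The other 8 of the 10 widest were 3773 to 2950 bp wide. On chromosome 4 a peak of 3773 bp at 128695935 to 128699707 lay 679 bp from a knockout peak of 1331 bp, whose wild-type partner was wider at 2429 bp. A similar case on the same chromosome was a peak of 3214 bp at 41036648 to 41039861, beside a knockout peak of 1284 bp with a partner of 2615 bp. On chromosome 11 a peak of 3684 bp at 96151640 to 96155323 lay 2546 bp from a knockout peak of 1300 bp that overlapped a wild-type peak of 6125 bp. In these 3 the neighbouring site was also much narrower in the knockout. On chromosome 2 a peak of 3623 bp at 174119668 to 174123290 lay 424 bp from a knockout peak of 2733 bp, close in width to its partner of 2789 bp. On chromosome 13 a peak of 3013 bp at 52173843 to 52176855 was the only one of the 10 with a knockout-only neighbour, of 1399 bp and 1463 bp away. The remaining 3, on chromosomes 19, 12 and 17 with starts at 37431624, 58642506 and 23857323, had shared neighbours of 2050, 2254 and 2595 bp. Their wild-type partners measured 2847, 2818 and 2462 bp, so the knockout peak was narrower on chromosomes 19 and 12 as well.

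The widest neighbours, by contrast, mostly stood beside small wild-type-only peaks. After the region of chromosome 1 came a knockout peak of 9940 bp on chromosome 15, 38379207 to 38389146, which overlapped 2 wild-type peaks and had a wild-type-only peak of 1229 bp 1573 bp away. It was followed by 9931 bp on chromosome 15, 103131945 to 103141875, which spanned 5 wild-type peaks and stood 493 bp from a wild-type-only peak of 1166 bp. The fourth and the fifth were 9611 bp on chromosome 6 and 8424 bp on chromosome 11. Each had a single wild-type partner, of 8354 and 7535 bp, and the wild-type-only peaks beside them were 1079 and 1109 bp wide.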

How the data were processed

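H2A.Z ChIP-seq peak positions of 1 wild-type and 1 Anp32e knockout MEF library were used. Each of the 2 deposited lists has 3 columns, namely chromosome, start and end. These deposited lists hold no height, score, p-value or count. The lists came out of Galaxy, per the file headers. The submitters' processing notes name mm9 as the build, and HOMER, MACS 1.4.2, Bowtie 0.12.8 and CASAVA 1.8.2 as tools. What each tool did, with which settings and threshold, and how inputs entered is not given in the sources used here. Peak calls depend on depth, which is unknown.

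Positions were read as BED and are printed on mm9, counted from 1. A shared peak had at least 1 bp in common with the other list. Gaps were taken to the nearest non-overlapping peak. Python 3.11.15, numpy 2.4.6, pandas 2.3.3, scipy 1.17.1 and matplotlib 3.10.9 were used, and the pairing code was tested on simulated peaks. The regions named were the 10 widest, the 5 with the smallest gap, the 3 on each side of the limit, the 3 windows of 100 kb with most, the first neighbour serving most and the 5 widest neighbours. The set and these rules were chosen with earlier results of these data known. Gene names and sequences were not used here, since the tables at hand are on another build. Alternatives changed the overlap rule, the gap limit, merging, and the chromosomes or narrow peaks kept; omission of chromosome 4 was chosen after seeing the data.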

Additional observations from a re-analysis of the deposited data

How the results depend on the processing

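The order of the wild-type-only and shared percentages turned over under 3 alternatives. A change of sign was possible for the pair difference only, and it stayed positive throughout. Of 70 alternative values 38 stayed within the main interval or, for counts, within 1.5 times, while 32 did not. The set numbered 829 and 1655 with gap limits of 1000 and 2500 bp, 1600 without the narrowest 20% of each list and 8496 when only peaks with centres within 250 bp counted as the same site, which also admits overlapping peaks. As a percentage of wild-type-only peaks, beside the same percentage for shared peaks, it was 12.03 and 10.1% (1000 bp), 24.01 and 23.9% (2500 bp), 54.8 and 58.6% (10000 bp), 35.1 and 35.5% (merging within 500 bp), 33.7 and 34.6% (narrowest 20% left out) and 66.5 and 38.2% (centres). The wild-type-only percentage was thus the higher one at 1000 bp, by a small margin at 2500 bp, and by centres. By centres, peaks that overlap a knockout peak off centre count as wild-type-only and as near, so the rule itself raises that percentage. With 50% of the shorter peak the percentage was 39.1%, and without chromosomes 1, 4, 12, 13 and 16 that of shared peaks was 40.5%. Median width was 1443 bp by centres, 1330 bp without narrow peaks and 1131 bp without chromosome 4. Neighbours had a partner in 22.4% (centres), 76.2% (merging), 80.7% (without narrow peaks) and 76.3% (without chromosome 4). Their width was 2388 bp (centres), 1900 and 1881 bp (limits of 1000 and 2500 bp) and 2043 bp (without narrow peaks). The pair difference was 180 bp at 1000 bp, 192 bp without the 5 chromosomes and 195 bp without chromosome 4. Limits and filters change which peaks enter, and otherwise the cause was not tested. No paired analysis was possible because there was 1 library of either genotype. How many peaks are missing depends on the unknown depth.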

Other observations

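Of the other wild-type peaks within 50 kb of adjacent wild-type-only peaks, 20.4% were wild-type only, compared with 13.9% around shared peaks that had another knockout peak within 5000 bp and 32.1% around remote wild-type-only peaks. If each neighbour had its chromosome's share of wild-type-only peaks, the values would be 21.99%, 18.2% and 22.9%. For the nearest other wild-type peak alone, 11.9% (95% interval 10.7 to 13.2%) were wild-type only beside the adjacent set, where its chromosomes' shares would give 20.8%. Beside shared peaks with another knockout peak nearby the values were 7.83% and 17.4%, and beside remote peaks 39.2% and 21.4%. The adjacent set thus lay below its chromosomes' shares by the nearest peak and slightly below them within 50 kb, while remote peaks lay above by both. The adjacent set also lay in richer surroundings than the remote set, with a median of 5 other wild-type and 5 knockout peaks within 50 kb against 2 and 2. Shared peaks with another knockout peak nearby had medians of 5 and 7. The rule itself asks for a knockout peak beside the adjacent set and for none beside the remote set, so these values describe the sets and do not test them.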
